A study of Mus musculus with 10 samples.

Results

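The proteasome subunit genes are the genes whose symbols begin with Psm, a letter from a to g and a digit. The pattern took 54 of the 55573 rows of the count table, and 4 pseudogene names holding -ps were left out, which left 50 genes. They comprise 8 genes of the 20S alpha ring, 7 standard and 4 inducible or tissue-specific genes of the 20S beta ring, 6 ATPases and 11 other subunits of the 19S cap, 6 activators or inhibitors, 7 assembly chaperones and Psmc3ip. The last of these shares only the name, being a gene of meiotic recombination. RNA was measured by polyA-selected sequencing of cortical neurons from mouse pups on postnatal day 3, sorted by flow cytometry for the yellow reporter EYFP, with 1 preparation per mouse. The 5 Cdk7_KO pups were NexCre/+ with Cdk7lox/lox alleles, and the 5 Ctrl pups were NexCre/+ with Cdk7+/+. Pups of both groups carried R26EYFP/+, so the driver and the reporter were shared. NexCre expresses Cre from Neurod6, a locus active in excitatory neurons of the dorsal forebrain soon after their birth. Recombination is therefore limited to cells that used this locus, and Ctrl cells carried no floxed allele. Cdk7 encodes a kinase that activates other cyclin-dependent kinases and is part of TFIIH, a general transcription factor, and the comparison asks how its loss changes RNA levels in these neurons.

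The proteasome is the large protease that breaks down proteins tagged with ubiquitin. Its barrel-shaped 20S core is made of outer alpha rings, which gate the entry, and inner beta rings, which hold the peptide-cutting sites. The 19S cap binds ubiquitin chains, removes them and unfolds the substrate with a ring of ATPases. Interferons switch on alternative cutting subunits (Psmb8, Psmb9 and Psmb10) and the PA28 activator (Psme1 and Psme2), which change the peptides offered to class I antigen presentation. In neurons the proteasome is known for protein quality control and for the turnover of synaptic proteins.

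Total counts per library lay between 23497621 and 31233466. Cdk7, the targeted gene, stood at 15.7 ± 4.00 CPM (counts scaled to the library total) in Ctrl and 5.16 ± 1.30 CPM in Cdk7_KO (mean ± SD of 5 libraries). The lowest Ctrl library was at 10.1 CPM and the highest Cdk7_KO library at 7.07 CPM (two-sided exact permutation p = 0.0079, the smallest that 5 against 5 libraries can give). Markers of projection neurons summed to 1377 to 2015 CPM in Ctrl against 1624 to 2219 CPM in Cdk7_KO, and 8 of 8 had a log2 fold change above 0 with TMM scaling factors, where Fezf2 was level by library totals (-0.0014). Markers of other cells were present in every library and lower in Cdk7_KO. This held for 12 of 12 markers of microglia and macrophages (119 to 399.3 CPM summed in Ctrl, 60.9 to 197 CPM in Cdk7_KO) and for 10 of 10 of endothelial cells and pericytes (196 to 1250 CPM against 50.6 to 278 CPM). It held also for 9 of 9 of astrocytes and radial glia (827 to 1561 CPM against 209 to 899 CPM), and no marker of these lists was at 0 in any library. By their Xist and Ddx3y counts, the libraries with replicate numbers 1 to 3 (2 Ctrl and 3 Cdk7_KO) were male and those with numbers 4 to 6 (3 Ctrl and 2 Cdk7_KO) female, so sex and a batch that follows the numbers cannot be told apart.

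As shares of each library's counts, the proteasome genes were nearly level between the genotypes. No spike-in or cell number entered the scaling, so RNA per cell was not measured. Of the 50 genes, 47 passed the filter on low counts and were tested, and Psma8, Psmb9 and Psmb11 did not pass. The log2 fold change of Cdk7_KO over Ctrl was above 0 for 40 of the 47 and for 52.5% of all 15578 genes tested. The members' median was 0.079, against 0.013 over all genes. With library totals in place of TMM scaling factors, 28 of the 47 and 6327 of all 15578 genes were above 0. The medians came to 0.025 for the proteasome genes and -0.040 for all genes, a shift of -0.053 that all genes shared. Relative to the median of all genes, the members' median was 0.066 with either scaling. The edgeR quasi-likelihood test called 0 of the 47 at an adjusted p under 0.05, as it called 0% of all genes. DESeq2 called 3.24% of the genes to which it gave an adjusted p, and 0 proteasome genes among them. At an unadjusted edgeR p under 0.05, 4 of the 47 were higher (Psma6, Psmb4, Psmd11 and Psme1), beside 4.9% of all genes, and 0 were lower, beside 10.5% of all genes. The count of 4 became 8 without Ctrl replicate 3, 2 without Ctrl replicate 4, Cdk7_KO replicate 1 or Cdk7_KO replicate 5, and 1 without Ctrl replicate 5 or Cdk7_KO replicate 4. No proteasome gene had groups free of overlap in CPM, in either direction, beside 0.61% of all genes higher and 2.41% lower in Cdk7_KO.

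The intervals were narrow. The 95% interval of the fold change stayed within 1.25-fold in either direction for 40 of the 47 proteasome genes, and for 31.1% of all genes tested. The 7 with wider intervals were Psmb5, Psmb8, Psme2b, Psme4, Psmg3, Psmg4 and Psmc3ip. Across the 10 libraries the median coefficient of variation was 5.57% for the tested proteasome genes and 17.03% for all genes. The members were not matched to all genes by count level, on which both measures depend. Among the partner lists described below, this median ran from 5.23% (p97 unfoldase) to 26.2% (class I antigen processing). In these 2 lists 7 of 7 and 2 of 11 intervals stayed within 1.25-fold. Psmd2, a scaffold subunit of the 19S base, varied by 2.88%. Together the members took 0.461% of all counts in Ctrl and 0.468% in Cdk7_KO.

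**Figure D1:**
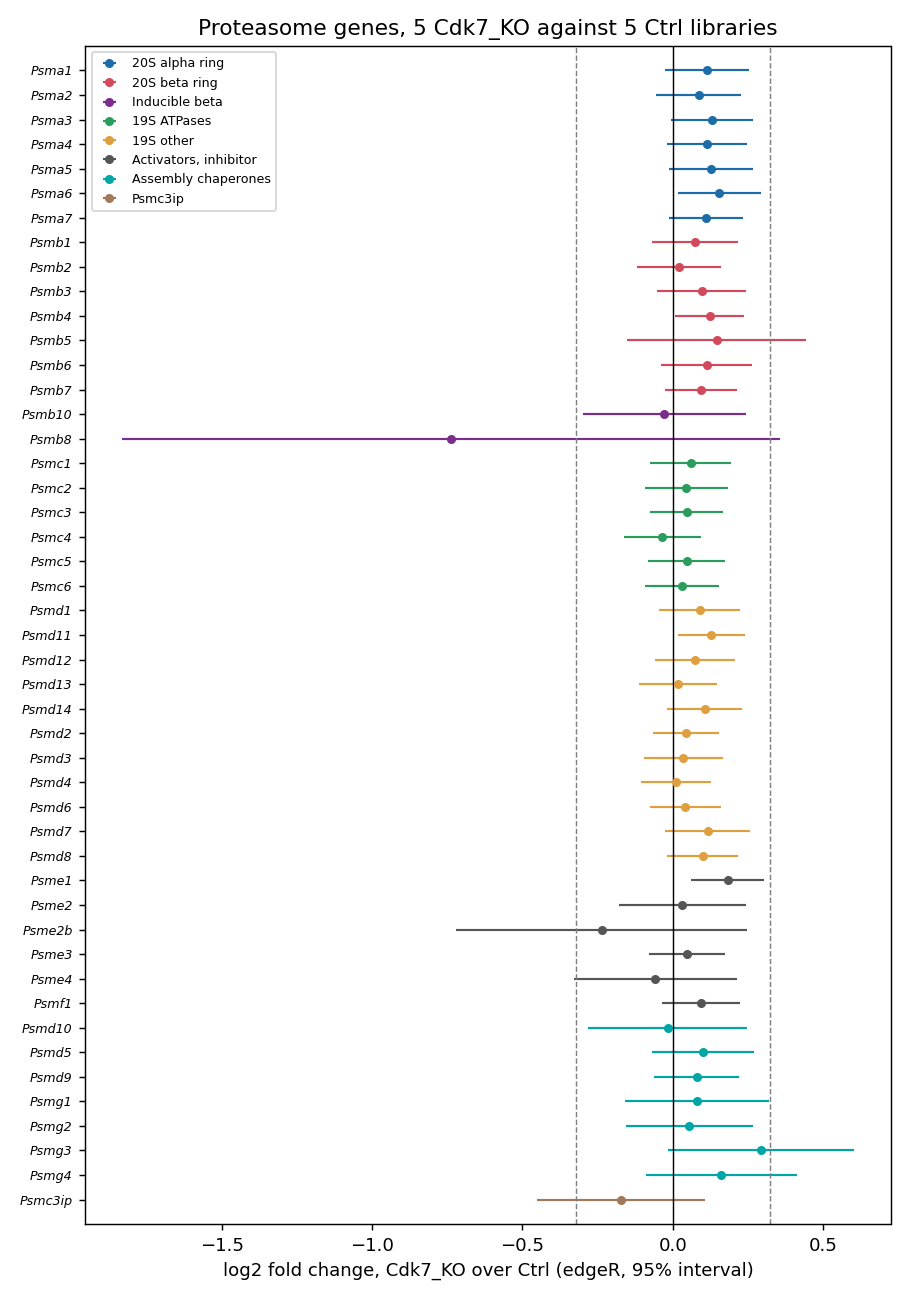
Log2 fold change of Cdk7_KO over Ctrl for each of the 47 tested proteasome genes (points, coloured by role), with edgeR 95% intervals (bars) and dashed lines at 1.25-fold in either direction. Most points sit slightly right of 0 with intervals inside the dashed lines, while the interval of Psmb8 runs from -1.83 to 0.36.

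Promoter windows of 250 bases before to 50 bases after the annotated start were available for 42 of the 50 genes, as 45 windows from RefSeq on GRCm38.p6. They were searched on both strands for letters of elements linked to these genes in textbooks, and a match describes the letters only. The antioxidant response core TGACNNNGC was found in 4 of 27 windows of standard subunits (14.8%), beside 12.4% of all 32851 windows. The CCAAT box (CCAAT) was in 37.0% of the standard windows and 37.4% of all, and the GC box (GGGCGG) in 55.6% and 35.7%. The interferon gamma activated site (TTCNNNGAA) was in 1 of the 27 (3.70%) and 8.30% of all windows, and the interferon-stimulated response core in 2 of the 27 (7.41%) and 3.44% of all. The 4 windows shown were chosen because they belong to the catalytic pair Psmb5 and Psmb8, to Psmb6, and to Psme1, the member with the smallest p. They lie at chr14:54617946-54618245 on the minus strand for Psmb5, chr11:70525107-70525406 on the plus strand for Psmb6, chr17:34197945-34198244 on the plus strand for Psmb8 and chr14:55578244-55578543 on the plus strand for Psme1. Capitals mark every match of the 5 searched elements, which are the antioxidant response core in Psmb5, a GC box (read on the other strand) and that same core in Psmb6, the interferon gamma activated site in Psmb8, and a GC box and the interferon-stimulated response core in Psme1.
Psmb5: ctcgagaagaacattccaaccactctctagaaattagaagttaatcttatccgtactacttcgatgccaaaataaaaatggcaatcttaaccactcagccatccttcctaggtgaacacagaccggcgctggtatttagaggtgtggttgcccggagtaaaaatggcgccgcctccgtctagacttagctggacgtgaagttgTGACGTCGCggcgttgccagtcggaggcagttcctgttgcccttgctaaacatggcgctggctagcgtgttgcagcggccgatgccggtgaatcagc
Psmb6: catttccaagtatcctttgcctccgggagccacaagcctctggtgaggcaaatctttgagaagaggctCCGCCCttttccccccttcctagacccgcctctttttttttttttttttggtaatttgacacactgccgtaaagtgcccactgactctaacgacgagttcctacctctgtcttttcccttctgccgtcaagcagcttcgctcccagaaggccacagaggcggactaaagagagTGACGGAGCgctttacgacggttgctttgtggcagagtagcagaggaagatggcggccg
Psmb8: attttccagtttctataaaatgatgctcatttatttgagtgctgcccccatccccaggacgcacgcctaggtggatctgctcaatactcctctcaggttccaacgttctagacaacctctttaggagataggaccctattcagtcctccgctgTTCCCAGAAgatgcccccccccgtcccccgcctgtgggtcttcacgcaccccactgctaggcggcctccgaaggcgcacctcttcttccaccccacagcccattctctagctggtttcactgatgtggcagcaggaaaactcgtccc
Psme1: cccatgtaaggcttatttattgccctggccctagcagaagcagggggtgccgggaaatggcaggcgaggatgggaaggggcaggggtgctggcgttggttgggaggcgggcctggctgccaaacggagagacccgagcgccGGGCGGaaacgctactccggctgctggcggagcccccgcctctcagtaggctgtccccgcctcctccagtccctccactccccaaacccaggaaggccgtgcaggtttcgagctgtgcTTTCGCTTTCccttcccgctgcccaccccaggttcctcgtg
In these windows Psmb5 and Psmb6 hold the antioxidant response core 47 and 9 bases before the start. Psmb8 holds the gamma site 97 bases before it. Whether a match goes with the level of a gene was not tested. The windows of the other interferon-inducible members Psmb9, Psmb10 and Psme2 hold neither interferon element. The windows of Psmb8, Psmb9 and Psme1 lie wholly inside the gene spans of GENCODE M21. For these genes the bases before the outermost annotated start were therefore not searched.

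The alpha ring had small positive differences over the 10 libraries together. In female libraries 7 of 7 tested genes had a log2 fold change above 0 (median 0.20). In male libraries it was 4 of 7 (median 0.015). All 7 tested alpha genes had a log2 fold change above 0 under both scalings, with a median of 0.11 by TMM and 0.061 by library totals. Psma6, an alpha-ring subunit, had the smallest p of the ring. It stood at 121, 125, 119, 114 and 121 CPM in Ctrl replicates 1, 3, 4, 5 and 6 and at 133, 123, 121, 133 and 134 CPM in Cdk7_KO replicates 1 to 5. Cdk7_KO replicates 1, 4 and 5 lay above every Ctrl library, and the other two lay within the Ctrl range. Its log2 fold change was 0.15 (SE 0.06, edgeR adjusted p = 0.271). Psma3, another subunit of this ring, stood at 154, 148, 132, 146 and 142 CPM in Ctrl and at 150, 150, 160, 157 and 145 CPM in Cdk7_KO. The lowest Cdk7_KO library lay inside the Ctrl range and the ranges overlapped in part, with a log2 fold change of 0.13 (edgeR adjusted p = 0.346). Psma1, also of the alpha ring, was at 105 ± 7.77 CPM in Ctrl against 109 ± 5.35 CPM in Cdk7_KO (SD, n = 5), a difference within the spread of the libraries (edgeR adjusted p = 0.426). Summed over the ring, the level was 851 ± 38.6 CPM in Ctrl against 891 ± 17.2 CPM in Cdk7_KO, or 105% of Ctrl by library totals and 109% by TMM-scaled CPM.

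Psma8, the testis form of an alpha subunit, had 32 counts in the 5 Ctrl libraries, 23 of them in replicate 1, and 1 count in the 5 Cdk7_KO libraries. Seen over each group as a whole this is 0.237 CPM (exact 95% Poisson interval 0.162 to 0.335) against 0.00786 CPM (0.000199 to 0.0438). The intervals cover counting error only, and Ctrl replicate 6 and 4 Cdk7_KO libraries had no count.

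The standard beta ring gave values close to those of the alpha ring. All 7 genes had a log2 fold change above 0 by TMM, with a median of 0.095. By library totals it was 6 of 7, with a median of 0.043. In female libraries 7 of 7 were above 0, and in male libraries 3 of 7. Psmb4, a structural subunit without a cutting site, stood at 194, 204, 182, 196 and 191 CPM in Ctrl and at 200, 197, 210, 202 and 204 CPM in Cdk7_KO. The Cdk7_KO libraries lay in the upper part of the Ctrl range or just above it, with a log2 fold change of 0.12 (SE 0.05, edgeR adjusted p = 0.296). Psmb7, which carries the trypsin-like site, was at 205, 202, 186, 202 and 186 CPM in Ctrl and at 207, 203, 198, 204 and 196 CPM in Cdk7_KO. Psmb6, with the caspase-like site, was at 147 ± 10.6 CPM in Ctrl against 153 ± 5.87 CPM in Cdk7_KO (edgeR adjusted p = 0.471). Psmb5, the gene of the chymotrypsin-like site (ENSMUSG00000022193, GRCm38 chromosome 14, 54614119 to 54618022, minus strand), was the most variable of the standard subunits. Its levels were 40.6, 45.3, 42.7, 44.3 and 54.6 CPM in Ctrl against 46.2, 38.0, 49.1, 44.4 and 65.3 CPM in Cdk7_KO. The highest library of each group, Ctrl replicate 6 and Cdk7_KO replicate 5, stood clear of the rest, and the log2 fold change was 0.15 with an interval from -0.15 to 0.44 (edgeR adjusted p = 0.654). Without Cdk7_KO replicate 5 it was 0.014, and without Ctrl replicate 6 it was 0.23. The exons of Psmb5 share 12.1% of their bases with the microRNA gene Mir686 on the same strand in GENCODE M21.

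The 19S cap was closer to level. Of the 6 ATPases of its base, 5 had a log2 fold change above 0 with TMM factors and 1 with library totals. The median was 0.045 by the first and -0.008 by the second, beside 0.013 and -0.040 for all genes. In female libraries 6 of 6 ATPases were above 0, and in male libraries 2 of 6. Psmc1, an ATPase of the ring, stood at 181, 174, 164, 159 and 163 CPM in Ctrl and at 167, 164, 190, 166 and 159 CPM in Cdk7_KO, where replicate 3 lay far above the other 4. Psmc3, another ATPase, was at 166 ± 7.09 CPM in Ctrl against 165 ± 5.52 CPM in Cdk7_KO (edgeR adjusted p = 0.748). Psmc2 was at 84.4 ± 3.41 CPM and 83.9 ± 4.63 CPM (edgeR adjusted p = 0.783). For these 2 genes the sign of the log2 fold change, 0.05 for each with TMM factors, turned with library totals (-0.01 for each), which moved all genes alike.

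All 11 other cap subunits had a log2 fold change above 0 with TMM factors (median 0.074). With library totals it was 6 of 11 (median 0.022). In female libraries 11 of 11 were above 0, and in male libraries 2 of 11. Psmd11, a scaffold subunit of the lid, stood at 110, 103, 106, 105 and 106 CPM in Ctrl and at 113, 118, 112, 109 and 109 CPM in Cdk7_KO. Ctrl replicate 1 was the one library of its group to reach the Cdk7_KO range, and the log2 fold change was 0.13 (SE 0.05, edgeR adjusted p = 0.262). Psmd14, the enzyme that cuts ubiquitin chains from the substrate, stood at 120, 121, 123, 108 and 118 CPM in Ctrl and at 122, 124, 119, 123 and 123 CPM in Cdk7_KO (edgeR adjusted p = 0.405). Ctrl replicate 5 was low and the other libraries lay close together. Psmd2 was at 378 ± 8.20 CPM in Ctrl against 376 ± 13.9 CPM in Cdk7_KO (edgeR adjusted p = 0.739).

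**Figure D2:**
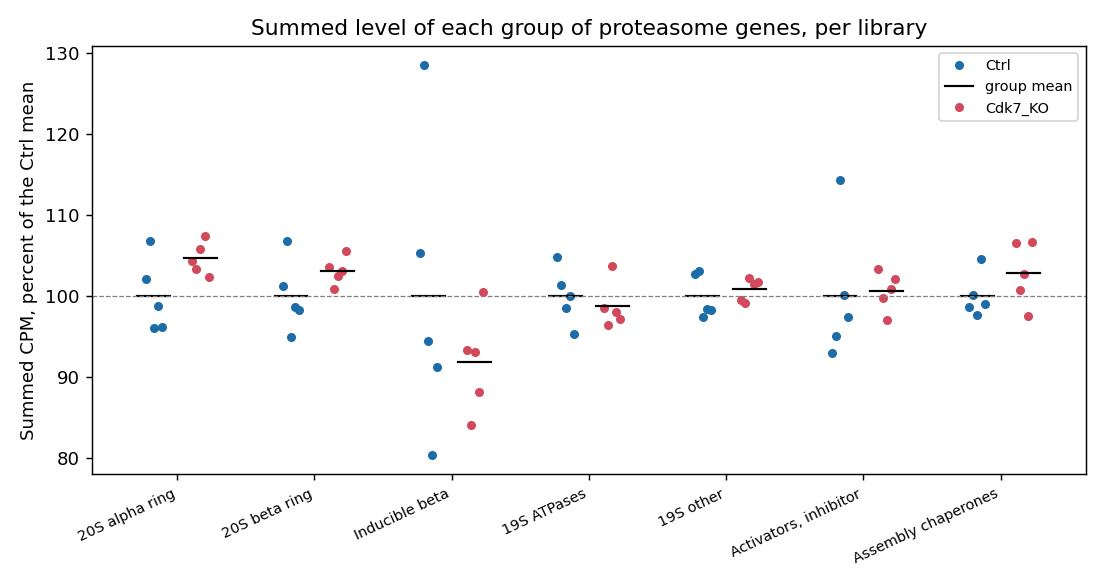
Summed CPM of each group of proteasome genes in every library (points, blue for Ctrl and red for Cdk7_KO), as percent of the mean of the 5 Ctrl libraries, with group means as bars. Cdk7_KO means lie at 105% for the alpha ring, 103% for the standard beta ring, 98.8% for the 19S ATPases and 91.9% for the inducible beta genes, and the libraries of the 2 groups overlap in each.

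Psme1, which encodes the alpha subunit of PA28 (ENSMUSG00000022216, GRCm38 chromosome 14, 55578123 to 55581529, plus strand), had the smallest p of all members. Its levels were 81.1, 84.1, 87.3, 80.9 and 82.8 CPM in Ctrl against 89.3, 93.8, 86.4, 89.7 and 96.2 CPM in Cdk7_KO. Only Ctrl replicate 4 reached into the Cdk7_KO range, where replicate 3 was lowest. The means were 83.2 ± 2.62 CPM and 91.1 ± 3.92 CPM (SD, n = 5), a 1.14-fold difference with a log2 fold change of 0.18 (95% interval 0.06 to 0.30). It did not pass the correction over all genes in edgeR (adjusted p = 0.180) or DESeq2 (adjusted p = 0.126), and its adjusted p under the 21 alternatives ran from 0.0829, with sex as a factor, to 1.00, with the other-cell index (a mean score of marker lists) as a covariate. Its partner Psme2 stood at 39.2 ± 5.19 CPM in Ctrl against 38.5 ± 2.87 CPM in Cdk7_KO (log2 fold change 0.03, interval -0.18 to 0.24, edgeR adjusted p = 0.917). Whether the partners differ in response was not tested. Psme2b, a near-identical copy of Psme2 with which it may share reads, was at 3.12 ± 0.395 CPM and 2.54 ± 0.583 CPM (edgeR adjusted p = 0.654). Psmf1, an inhibitor of the core, was at 51.2 ± 2.69 CPM and 52.6 ± 1.73 CPM (edgeR adjusted p = 0.494).

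The assembly chaperones had 6 of 7 log2 fold changes above 0 under both scalings (median 0.080 by TMM and 0.028 by library totals). Psmg3, a chaperone of alpha-ring assembly, had the largest log2 fold change of the 47, 0.29 (interval -0.02 to 0.60, edgeR adjusted p = 0.353). It stood at 8.68, 7.78, 8.52, 8.38 and 8.22 CPM in Ctrl and at 10.3, 11.3, 7.58, 8.83 and 11.1 CPM in Cdk7_KO. The Ctrl libraries were tightly grouped, while the Cdk7_KO libraries spread from below the lowest Ctrl value to above the highest. Psmg4, which works with Psmg3, was at 16.3 ± 1.54 CPM and 17.6 ± 2.16 CPM (edgeR adjusted p = 0.544). Psmc3ip was at 12.1 ± 1.27 CPM and 10.3 ± 1.28 CPM (edgeR adjusted p = 0.561), and 21.2% of its exon bases are shared with Mlx on the other strand.

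Levels can be compared between genes only per length, here as Ctrl CPM per kb of merged exons, which lowers genes with long alternative exons. On this scale the alpha genes ran from 32.4 (Psma2) to 97.2 (Psma6) and the standard beta genes from 27.6 (Psmb1) to 99.0 (Psmb4), where merged exon length sets much of the order. Psma2 and Psma6 had 119 and 120 CPM before division by 3673 and 1234 exon bases, and Psmb1 and Psmb4 had 127 and 193 CPM before division by 4595 and 1951. The ATPases ran from 16.8 (Psmc2) to 87.0 (Psmc1), and the other cap subunits from 16.7 (Psmd11) to 93.7 (Psmd2). Among activators and inhibitor Psme1 was highest at 37.7 and Psme2b lowest at 3.72, and among chaperones Psmg4 was highest at 29.4 and Psmg3 lowest at 2.87. The inducible Psmb10 was at 9.93 and Psmb8 at 0.366 CPM per kb.

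**Figure D3:**
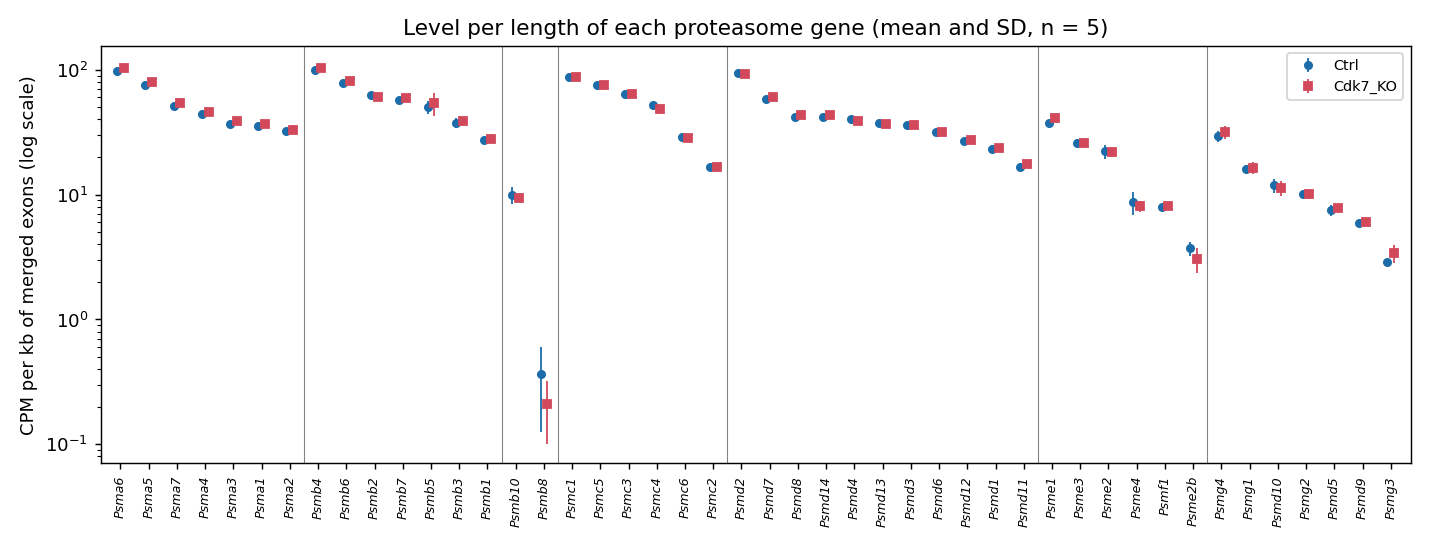
Level of each tested proteasome gene per kb of merged exons, as mean and SD over 5 libraries of each genotype on a log axis, grouped by role and ordered by Ctrl level within a role. The 2 genotypes sit side by side at almost every gene, and the inducible pair Psmb10 and Psmb8 lies below the standard beta genes, at 9.93 and 0.366 CPM per kb in Ctrl.

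Of the inducible cutting subunits, Psmb8 and Psmb9 were scarce in the sorted cells. Psmb8 (ENSMUSG00000024338, GRCm38 chromosome 17, 34197721 to 34201454, plus strand), which replaces Psmb5 in the immunoproteasome and whose promoter window holds the letters of the gamma site, had 34, 80, 21, 23 and 14 counts in Ctrl and 37, 20, 18, 6 and 13 counts in Cdk7_KO. In CPM these are 1.45, 2.56, 0.847, 0.813 and 0.518 against 1.28, 0.782, 0.729, 0.252 and 0.535. The highest values came from Ctrl replicates 3 and 1 and the lowest from Cdk7_KO replicate 4, and the groups overlapped. The log2 fold change was -0.74 (interval -1.83 to 0.36, edgeR adjusted p = 0.518), which leaves room for a large decrease and for a smaller increase. Leaving out 1 library moved it between -0.28, without Ctrl replicate 3, and -1.07, without Cdk7_KO replicate 1. Per length, Psmb8 made up 0.737 ± 0.485% of the summed level of Psmb8 and Psmb5 in Ctrl and 0.408 ± 0.238% in Cdk7_KO (SD, n = 5). The Ctrl means of Psmb8 and Psmb5 were 1.24 and 45.5 CPM before division by 3381 and 899 merged exon bases. Exon length thus sets much of this share, which is not a proportion of protein. The exons of Psmb8 share 14.7% of their bases with the gene model Gm20496 on the other strand. As the strand setting of the counting is not stated, reads of the 2 genes cannot be told apart.

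Psmb9, the counterpart of Psmb6, had 2, 20, 11, 10 and 2 counts in Ctrl and 7, 0, 6, 3 and 19 counts in Cdk7_KO, which was too few for the test. It made up 0.110 ± 0.0794% of the summed level of Psmb9 and Psmb6 per length in Ctrl and 0.0926 ± 0.0966% in Cdk7_KO. This share too depends on merged exon length, 3660 bases for Psmb9 and 1872 for Psmb6. No count of Psmb9 was found in Cdk7_KO replicate 2, where 3 counts, the limit that a count of 0 allows, would be 0.117 CPM. Psmb10, the counterpart of Psmb7, was the most abundant of the inducible cutting subunits. It stood at 18.0, 20.6, 16.0, 13.7 and 16.3 CPM in Ctrl and at 15.8, 14.8, 16.2, 16.0 and 17.3 CPM in Cdk7_KO, where every library fell inside the Ctrl range (log2 fold change -0.03, interval -0.30 to 0.24, edgeR adjusted p = 0.942). Its share of the summed level of Psmb10 and Psmb7 per length was 14.7 ± 1.78% in Ctrl and 13.8 ± 0.872% in Cdk7_KO. Here the Ctrl means were 16.9 and 196 CPM before division by 1705 and 3421 merged exon bases, which raises the share of Psmb10. Psmb11, the thymus form, had 6 counts, all in Ctrl replicate 4, and 2 counts, both in Cdk7_KO replicate 3.

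**Figure D4:**
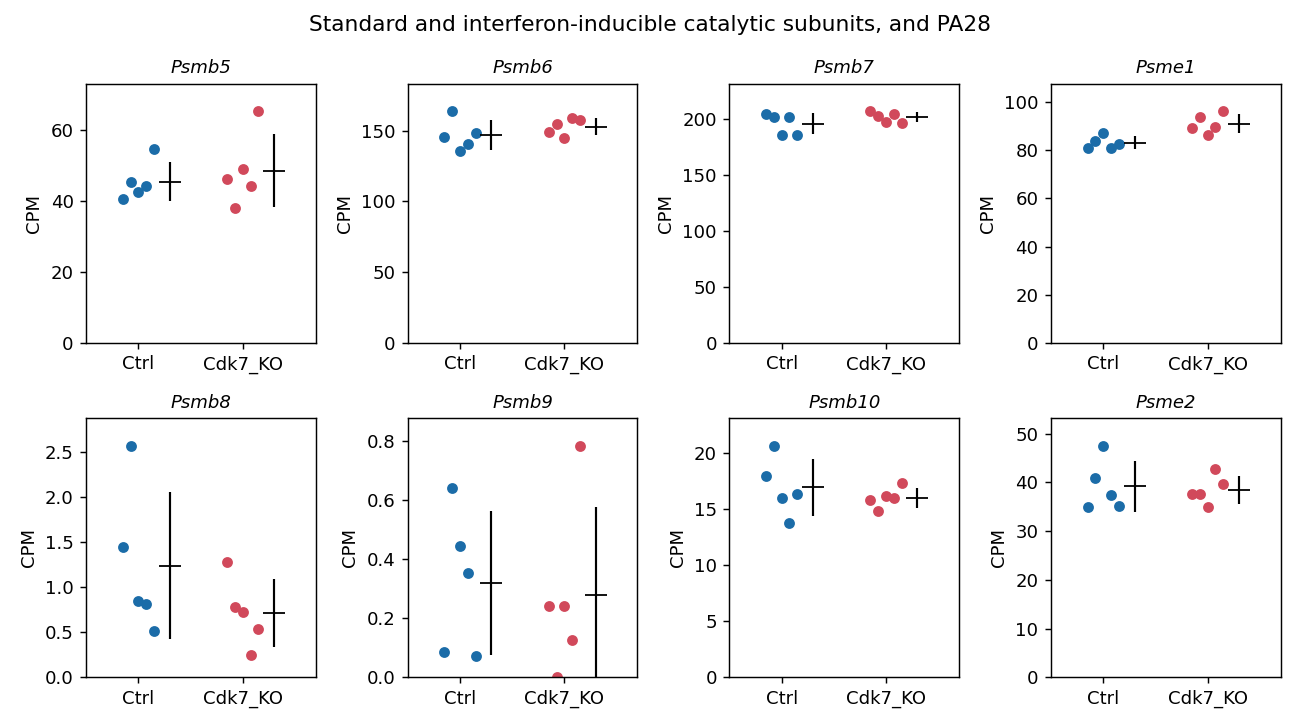
CPM of the standard cutting subunits Psmb5, Psmb6 and Psmb7, each above its inducible counterpart, and of Psme1 and Psme2 (points are libraries, crosses are mean and SD of 5, axes start at 0 and differ between genes). Psme1 shows the clearest shift, from 83.2 to 91.1 CPM, with 1 Ctrl library reaching the Cdk7_KO range, while Psmb8 and Psmb9 stay below 3 CPM with wide spread.

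Genes that work downstream of the immunoproteasome, in class I antigen presentation and its interferon control, lay lower in Cdk7_KO. All 11 tested of the 12 listed had a negative log2 fold change (median -0.40), as had 7405 of all 15578 genes. None of the 11 passed in edgeR, and 4 were lower at an unadjusted p under 0.05, where 10.5% of all genes were. B2m, the light chain of class I molecules, was at 19.8, 34.1, 8.52, 16.0 and 14.3 CPM in Ctrl and at 9.73, 6.64, 11.5, 3.20 and 7.57 CPM in Cdk7_KO (log2 fold change -1.22, edgeR adjusted p = 0.179). H2-K1, a class I heavy chain, was at 9.61 ± 2.66 CPM and 5.19 ± 1.85 CPM (edgeR adjusted p = 0.187, DESeq2 adjusted p = 0.0448). Erap1, which trims peptides, did not overlap between the groups, at 6.57 ± 1.69 CPM and 3.66 ± 1.30 CPM (edgeR adjusted p = 0.218). It was the 1 gene of the 11 lower without overlap, beside 2.41% of all genes tested. Tap2, a subunit of the peptide transporter, was at 4.12 ± 1.73 CPM and 2.14 ± 0.941 CPM (edgeR adjusted p = 0.284). With sex as a factor edgeR called 732 genes, among them B2m (adjusted p = 0.0184) and H2-K1 (adjusted p = 0.0483), and 0 proteasome genes; over 21 alternatives the adjusted p ran from 0.0184 to 1.00 for B2m and from 0.0448 to 1.00 for H2-K1. In such bulk samples fewer cells of a type and less RNA per cell cannot be told apart. Microglial, endothelial and glial markers were lower in the same libraries, with the summed levels given above, and an index of 4 such lists ran from 0.252 to 0.927 in Ctrl and from -1.69 to 0.176 in Cdk7_KO. With that index as a covariate the log2 fold change of Psmb8 was 0.66, that of H2-K1 0.04, that of Tap2 0.18 and the median of the class I list 0.04, while the median of the proteasome genes was 0.059. The index did not overlap between the genotypes, so the 2 terms are hard to separate in that fit.

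The factors that build and supply the proteasome had mixed values. Of 8 genes of maturation and transcription control, 4 were higher and 4 lower, and none passed in edgeR with genotype alone. Nfe2l2, the transcription factor of the oxidative stress response, was at 10.1 ± 2.76 CPM in Ctrl against 4.29 ± 2.73 CPM in Cdk7_KO (log2 fold change -1.20, edgeR adjusted p = 0.189, DESeq2 adjusted p = 0.0301). With sex as a factor edgeR called it (adjusted p = 0.0285), over 21 alternatives its adjusted p ran up to 1.00, and adding the index of other cells to the fit gave a log2 fold change of 0.04. Ddi2, the protease that activates the proteasome's transcription factor Nfe2l1, stood at 44.3, 36.3, 39.5, 36.4 and 38.3 CPM in Ctrl and at 30.9, 32.5, 25.8, 33.0 and 32.4 CPM in Cdk7_KO. Every Cdk7_KO library was below every Ctrl library, which held for 1 of the 8 genes and for 2.41% of all genes tested. The log2 fold change of Ddi2 was -0.28 (SE 0.10, edgeR adjusted p = 0.210, DESeq2 adjusted p = 0.156). Nfe2l1 itself was at 171 ± 7.26 CPM and 161 ± 6.61 CPM (log2 fold change -0.03, edgeR adjusted p = 0.837).

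Partner systems of the proteasome were close to level. Of the 7 genes of the p97 unfoldase, which hands extracted substrates to the proteasome, 7 had a log2 fold change above 0 with TMM factors and 6 with library totals (medians 0.076 and 0.022). Ufd1, a ubiquitin-binding adaptor of p97, was at 99.6 ± 4.74 CPM in Ctrl against 105 ± 5.63 CPM in Cdk7_KO (edgeR adjusted p = 0.318). Of 6 genes of ubiquitin and its activation, 5 were above 0 under both scalings. Uba1, the main ubiquitin-activating enzyme, was at 1148 ± 76.1 CPM and 1211 ± 53.3 CPM (edgeR adjusted p = 0.397). Of 13 proteasome-associated proteins and shuttles, 8 were above 0 with TMM factors and 6 with library totals. Usp14, a deubiquitinase of the 19S cap, was at 91.6 ± 5.30 CPM and 97.9 ± 6.47 CPM (edgeR adjusted p = 0.346). None of the genes of these lists passed in edgeR or DESeq2.

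The standard subunits lay furthest to 1 side of their 10-library means in 5 of the libraries. For the 31 standard genes of the 20S core and 19S cap, the mean deviation from the 10-library mean on the TMM-scaled log2 scale was -0.12 in Ctrl replicate 4 and -0.09 in Ctrl replicate 5, with 2 of 31 genes above their mean in each. In Ctrl replicate 6 it was -0.03, with 5 of 31 above. At the other end it was 0.11 in Cdk7_KO replicate 4, with 30 of 31 above, and 0.05 in Cdk7_KO replicate 5, with 24 of 31 above. These 5 libraries are the female ones. In the 5 male libraries the mean deviation lay between -0.01 and 0.02, with 15 to 21 of 31 genes above and no order by genotype. The median deviation of all genes lay between -0.0032 and 0.027 in the 10 libraries. Cdk7_KO replicate 4 also had the lowest other-cell index, -1.69, and the smallest TMM factor, 0.943. Without TMM factors its summed CPM of the standard genes, 4172, was below those of Ctrl replicate 1 (4178), Ctrl replicate 3 (4247) and Cdk7_KO replicate 3 (4207), so its place at the top holds on the TMM scale only.

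The medians are given for each sex as a description. In the female libraries 43 of 48 tested members had a log2 fold change above 0 with a median of 0.15, against a median of -0.01 over all genes. Of the genes also tested over all 10 libraries, 7546 of 15518 were above 0 there. In the male libraries 20 of 47 members were above 0 with a median of -0.01, against 0.02 over all genes, where 8360 of 15556 were above 0. The p97 list had 7 of 7 above 0 in female and 3 of 7 in male libraries. The ubiquitin list had 6 of 6 and 2 of 6, and the associated proteins and shuttles 9 of 13 and 4 of 13. Maturation and transcription control had 4 of 8 and 3 of 8, and the class I list 3 of 11 and 0 of 11. At an unadjusted edgeR p under 0.05, 10 members were higher in the female libraries, beside 6.92% of all genes, and 0 in the male libraries, beside 2.27%. The difference between the sexes was tested gene by gene with an interaction term, which passed for 0 members and 0% of all genes at an adjusted p under 0.05. At an unadjusted p under 0.05 the interaction was positive for 3 members (Psmb6, Psmb10 and Psmg1), beside 2.43% of all genes, and negative for 0, beside 4.91%. Psmb6 had a log2 fold change of -0.03 in male and 0.25 in female libraries (edgeR adjusted p of the interaction = 0.665). Psmb10 had -0.29 and 0.21, and Psmg1, a chaperone of alpha-ring assembly, -0.15 and 0.34 (edgeR adjusted p of the interaction = 0.665 for each). Psme1 was above 0 in both, at 0.14 and 0.25 (edgeR adjusted p of the interaction = 0.827).

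**Figure D5:**
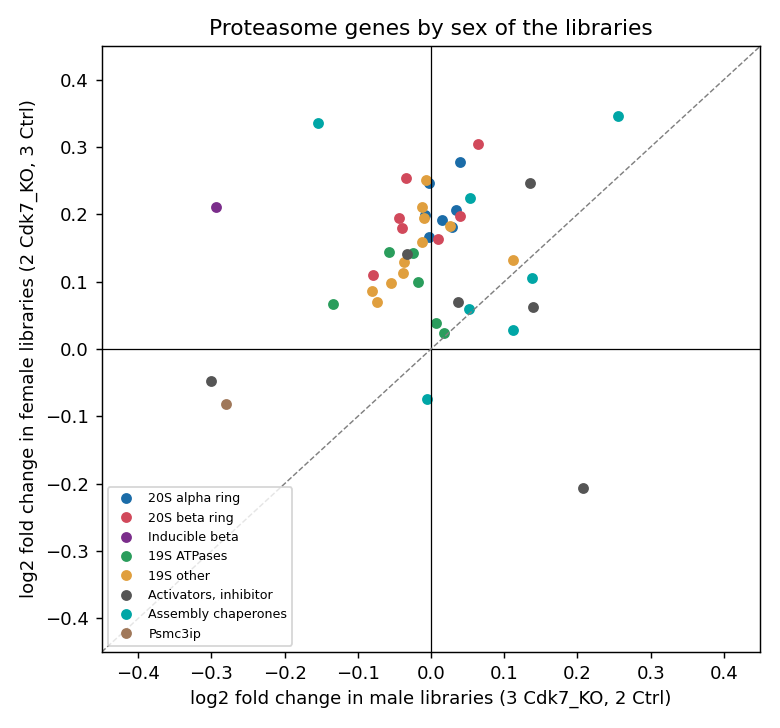
Log2 fold change of Cdk7_KO over Ctrl in male libraries (horizontal) and female libraries (vertical) for each tested proteasome gene except Psmb8 (-1.08 in male and -0.78 in female libraries), coloured by role, with a dashed line of equal values. The standard 20S and 19S genes cluster near 0 on the male axis and above 0 on the female axis, with medians of -0.01 and 0.17.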

How the data were processed

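The deposited table holds whole-number read counts per gene for 10 libraries, not normalized, as the authors deposited them. STAR, Salmon and the GRCm38 build are named, per the submitters' processing notes. Their versions, the counting step, the annotation and the strand setting were not given in the sources used here. Coordinates and exon lengths came from GENCODE M21, which matched all 50 members. Every column matched a sample by name. The smallest chi-square per gene between 2 libraries was 11.2, so none was a copy.

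Testing used edgeR 4.0.16 under R 4.3.3 (filterByExpr with minimum count 10, TMM factors, quasi-likelihood test, genotype only, Benjamini-Hochberg adjustment over 15578 genes, threshold 0.05). CPM uses library totals. Log2 fold changes are Cdk7_KO over Ctrl. DESeq2 1.42.0 (28191 genes fitted, adjusted p for 17299) and limma 3.58.1 were alternatives, with other scalings and filters, single libraries left out, sex, the replicate number and an other-cell index. The interaction of genotype with sex was fitted over all 10 libraries. Scripts were tested on simulated data. Totals of 23497621 to 31233466 counts per library limit the precision for genes of few counts, such as Psmb8.

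The members, role groups, lists and tests were chosen with earlier results of these data known. Named genes were Cdk7, Psma1, the interferon-inducible members and their standard counterparts, the 2 members with the smallest edgeR p in each role, members called or left out by the filter, those with the highest and lowest level per length in each role, and up to 4 genes of each pathway list. Of these list genes the text describes some. Psmg1, Nfe2l1 and other genes outside this rule were named after their values were seen. The value of 1 gene of the pathway lists is not reported here.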

Additional observations from a re-analysis of the deposited data

Results flagged for a closer look

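In 74 groups of 5 libraries, 8 values lay so far from the other 4 that Dixon's test marked them at 0.71 of the range, and chance marks about 1 in 20 groups. Psmc1 was at 189.9 CPM in Cdk7_KO replicate 3, where the other 4 libraries lay between 159.1 and 166.7 CPM. The 19S ATPases summed to 765.4 CPM in the same library, with the others between 711.2 and 726.5 CPM. Psmf1 was at 46.5 CPM in Ctrl replicate 1, with the others between 51.4 and 52.9 CPM. Psmg4 was at 21.3 CPM in Cdk7_KO replicate 2, with the others between 15.8 and 17.1 CPM. The remaining values came from genes of very few counts. Psma8 was at 0.979 CPM in Ctrl replicate 1 and 0.0405 CPM in Cdk7_KO replicate 3, and Psmb11 at 0.242 CPM in Ctrl replicate 4 and 0.0811 CPM in Cdk7_KO replicate 3.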

How the results depend on the processing

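No proteasome gene passed an adjusted p of 0.05 under any of the alternatives run, and in the 24 named members 480 of 503 alternative values kept their sign. Limits remain. Sex and any batch that follows the replicate numbers share their split, the other-cell index follows genotype, and genes of few counts have wide intervals. The number of genes called over the whole table was 0 with edgeR, 561 with DESeq2, 1 without the filter, 5 with the replicate number as a block and 732 with sex as a factor, and 0 to 5 when single libraries were left out (5 without Cdk7_KO replicate 1). Members at an unadjusted p under 0.05 and higher numbered 4, and came to 1 with library totals, 2 without the filter, 2 at a mean of at least 1 CPM, 1 with the replicate block, 0 in male libraries, 10 in female libraries, 0 with the index as covariate and 1 to 8 without single libraries. Lower members numbered 0, and 1 with DESeq2 and without the filter (Psma8, from Ctrl replicate 1), and 1 with sex as a factor (Psmb8). The median log2 fold change of the members, 0.079, was 0.0251 with library totals, -0.00753 in male and 0.151 in female libraries, and 0.0512 to 0.0912 without single libraries. The correlations of same-numbered libraries were -0.104, 0.314, 0.143 and 0.173, and those of differently numbered libraries ran from -0.348 to 0.331. Whether the replicate numbers pair the libraries was not tested. With the replicate block the members' median was 0.0881 and Psmb5 was the member at an unadjusted p under 0.05. Some genes in this text changed sign under an alternative, and the cause was not tested. In male libraries the log2 fold changes with the other sign were -0.0324 for Psme2, -0.0346 for Psmb6, -0.00768 for Psma1, -0.00349 for Psma2, -0.0391 for Psmb1, -0.0178 for Psmc1, -0.057 for Psmc3, -0.0253 for Psmc2, -0.0364 for Psmd2, 0.095 for Ngly1, -0.00544 for Uba1, -0.0742 for Rps27a, -0.0785 for Faf1 and -0.0189 for Nploc4. With the index as covariate they were 0.664 for Psmb8, -0.135 for Psme2, -0.0535 for Psmc2, 0.0378 for Nfe2l2, -0.00674 for Akirin2, 0.0743 for Ngly1, -0.0109 for Nploc4, 0.042 for H2-K1 and 0.178 for Tap2. With library totals they were -0.0256 for Psme2, -0.00737 for Psmc3, -0.00929 for Psmc2 and -0.0103 for Psmd2. Psmb10 was 0.0149 with the replicate block and 0.211 in female libraries. Without single libraries Psmb10 ranged from -0.0988 to 0.0528, Psme2 from -0.0365 to 0.101 and Psmc2 from -0.0128 to 0.0715.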
